A study of Mus musculus with 55 samples.

Results

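The comparison described here sets mice that received an injection of saline alone against mice that received no injection, both fed the AIN-76A diet and neither given arsenic (As). They were chosen by their sample labels, 5 mice in each group, and make up 10 of the 55 mice whose lung RNA was measured, 1 Affymetrix mouse whole-genome array per mouse. The other mice were exposed to sodium arsenite in food (10 ppb) or water (10 or 100 ppb) for 5 wk on the AIN-76A diet or on a diet labelled LRD, served as LRD controls, or were injected with dexamethasone (a synthetic glucocorticoid), arsenite or both. These injected mice were on the AIN-76A diet, received 1 mg/kg of each compound given, and are labelled 8 hr after injection. All 55 mice were male C57BL/6 by their labels (C57BL/6J in the study's methods), 6 wk old at the start and kept on their diet for 2 wk before treatment.

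Saline mice (replicates B, C, D, E and F) were injected into the peritoneum with normal saline and are labelled 8 hr after injection. AIN control mice (replicates A, C, D, E and F) carry no injection in their labels, had arsenite in neither food nor water, and belong to the 5-wk exposure experiment. When the injected mice were taken relative to those 5 wk is not given in the sources used here, nor is the hour of day, so the injection, the handling around it, age and the schedule of collection cannot be told apart. The study's methods describe no injected mice. Each array is a whole lung sample, in which fewer cells of a type and less RNA per cell cannot be told apart.

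A saline injection is the usual vehicle control for injected drugs. Handling and injection are known to activate the pituitary-adrenal axis of rodents, which releases corticosterone, and the lung responds to glucocorticoids through the glucocorticoid receptor, a transcription factor that binds DNA and raises genes such as Fkbp5, Klf15 and Zbtb16. The same hormone follows a daily rhythm, and many of its target genes also vary with the circadian clock. These are background facts and were not measured in these mice.

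No probe set separated the groups at an adjusted p under 0.05. Of 45037 probe sets tested with limma, 0 passed after Benjamini-Hochberg adjustment (percent of probe sets called, 0.0), and the smallest adjusted p was 0.075. At an unadjusted p under 0.05, 879 probe sets were higher in saline mice (1.95%) and 1699 were lower (3.77%). The rank product, the study's own method for its chronic groups, listed 4210 of the 45037 probe sets as higher and 4971 as lower. The threshold here was an estimated share of false calls under 0.05, where the study took p under 0.05. Its 25 differences between mice share mice but are ordered at random as if separate, so these counts are not read as changes. Among the 18193 genes with a named probe set, each given by its brightest one, 420 were higher (2.31%) and 745 lower (4.09%) at an unadjusted p under 0.05. These shares over all genes are the background to every list count below. In 76 genes (0.418%) every saline mouse was above every control mouse, and in 148 (0.813%) every saline mouse was below. The p-values measure the spread between these mice. Values below are log2 expression. A difference is the mean of saline mice minus the mean of AIN control mice on that scale and each adjusted p is limma's over all 45037 probe sets.

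The arrays were alike in scale, with medians between 4.25 and 4.33. They came from 5 array batches, told by the shared start of the raw array name: saline mice B and C and control mouse A were in batch b3, saline D and control E in b2, saline E and control F in b5, saline F and control C in b1, and control D alone in b4. Lung identity was plain in every mouse, since the mean of 10 markers of alveolar type II cells, which make surfactant, lay between 12.06 and 12.53 in saline mice and between 12.04 and 12.48 in control mice. Markers of tissues next to the lung varied by mouse. The mean of 9 white fat markers was 8.12 in saline mouse D and 10.21 in saline mouse E, against 5.04 to 6.39 in control mice. The mean of 9 thymocyte markers was 8.27 in saline mouse E, against 4.49 to 4.61 in control mice, and that of 8 liver markers was 8.61 in saline mouse D, against 3.85 to 4.26 in control mice. Skeletal muscle markers averaged 3.82 to 4.71 in saline mice, against 8.66 in control mouse E and at most 4.92 in the other control mice.

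**Figure D1:**
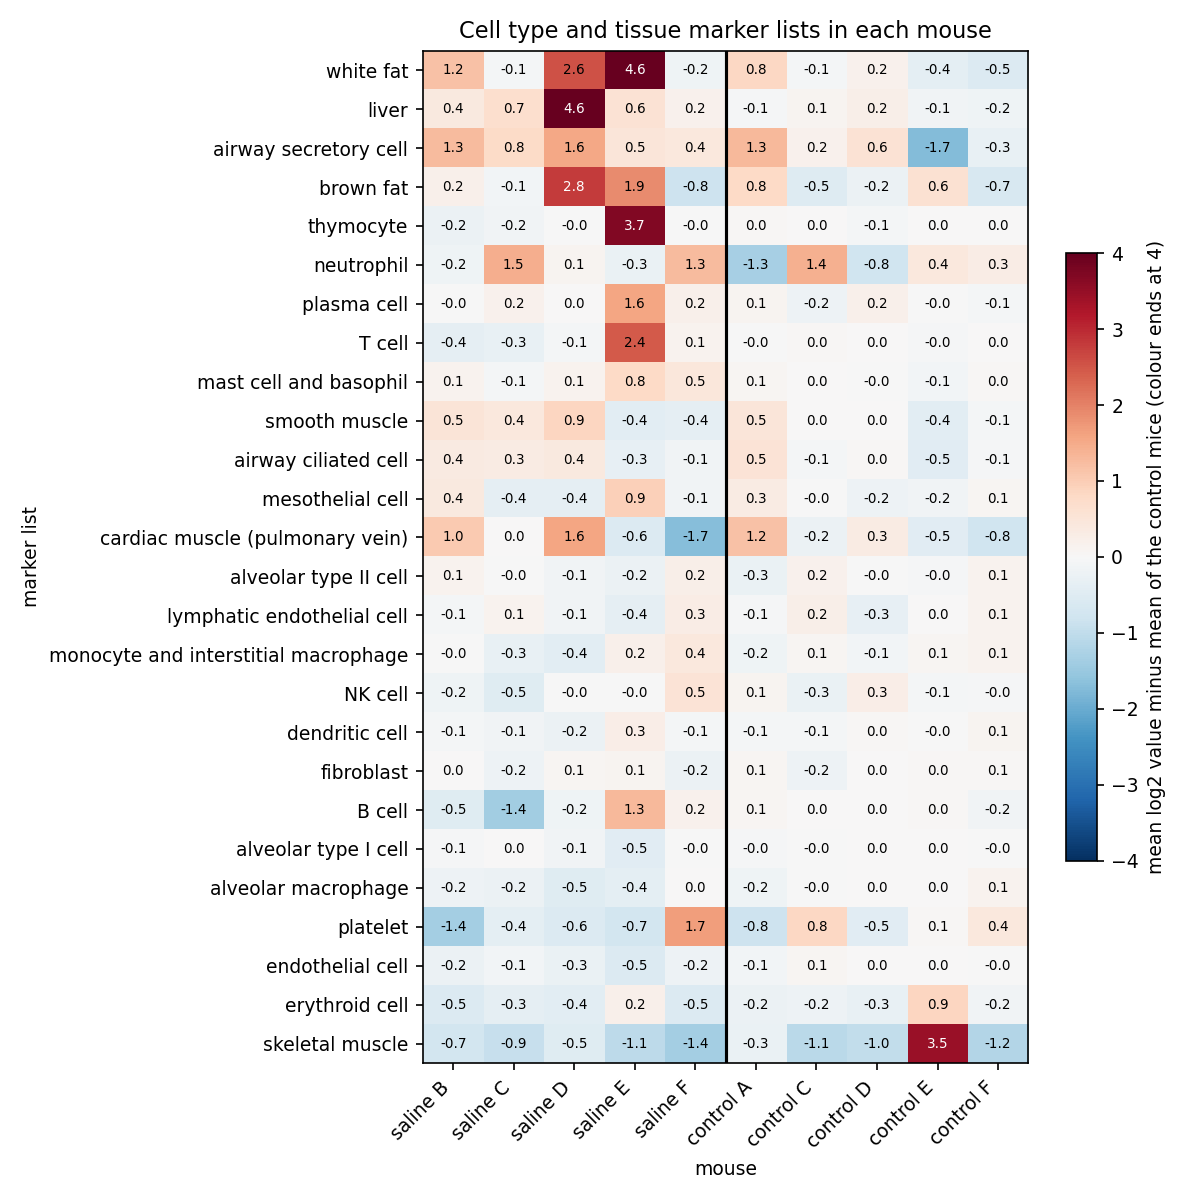
Marker lists in each mouse as a heat map, with saline mice left of AIN control mice and 1 row per list. Each cell gives the mean log2 value of the list minus the mean of the control mice, and color ends at a difference of 4 on either side. Saline E stood out in white fat and thymocyte markers, saline D in liver markers and control E in skeletal muscle markers, whose mean levels were 10.21, 8.27, 8.61 and 8.66.

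The smallest p-values belonged to genes that were lower in saline mice. The 15 genes with the smallest p in this direction had differences between -1.03 and -0.42 and adjusted p between 0.075 and 0.722. In each of them all 5 saline mice were below all 5 control mice. The difference was therefore also negative within each of the 4 array batches that held both groups, which is no separate result. With 1 mouse left out at a time, the smallest adjusted p that any of these genes reached in any fit was 0.111. Over all probe sets the smallest adjusted p was 0.111 without saline B and 0.357 without control E. It was 0.763 with the array batch as a block in the model and 0.585 with the replicate letter as a block. The 15 genes were selected for their p on these mice, so their separation is a description.

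Wnt2, a Wnt ligand made by lung mesenchyme (chromosome 6, 17985474 to 18032772 in GRCm38.p6), measured 7.11, 6.84, 6.90, 6.93 and 7.13 in saline mice B to F, against 7.68, 7.58, 7.69, 7.87 and 7.67 in control mice A, C, D, E and F. Every saline mouse lay below the lowest control mouse, by a margin wider than the spread within either group. The difference was -0.72 ± 0.09 (SE, n = 5 each), 1.65-fold lower (adjusted p = 0.075), and within batches it ran from -0.97 to -0.45. Wnt7a, a ligand of epithelial and endothelial cells, measured 5.82, 5.04, 5.92, 5.67 and 6.34 in saline mice, against 6.75, 6.62, 6.91, 6.91 and 6.75 in control mice. Saline C was lowest and saline F came closest to the controls, and the difference was -1.03 ± 0.19 (SE, n = 5 each), the largest of the 15 (adjusted p = 0.501). Only 1 of the 3 Wnt7a probe sets was lower at an unadjusted p under 0.05. Fzd2, a frizzled receptor of Wnt ligands, measured 7.18, 6.72, 7.32, 7.32 and 7.34 in saline mice, against 7.89, 7.82, 7.76, 7.66 and 7.69 in control mice. Its difference was -0.59 ± 0.12 (SE, n = 5 each; adjusted p = 0.722), and all 3 of its probe sets were lower at an unadjusted p under 0.05.

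Klf11, a Kruppel-like repressor that acts downstream of TGF-beta (chromosome 12, 24651371 to 24662782), measured 7.28, 7.27, 7.17, 7.14 and 7.20 in saline mice, against 7.71, 7.72, 7.81, 7.74 and 7.84 in control mice. Both groups were tight, and the difference was -0.55 ± 0.07 (SE, n = 5 each), 1.46-fold lower (adjusted p = 0.075). Hlx, a homeobox factor of mesenchyme and of T helper cells (chromosome 1, 184727143 to 184732493), measured 7.81, 7.96, 7.79, 7.60 and 7.73 in saline mice, against 8.43, 8.44, 8.42, 8.55 and 8.74 in control mice. Saline E was lowest and control F highest, with no overlap, and the difference was -0.74 ± 0.09 (SE, n = 5 each), 1.67-fold lower (adjusted p = 0.075).

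Ahr encodes the receptor for dioxins and other aryl hydrocarbons. It measured 9.14, 9.10, 9.46, 9.55 and 9.89 in saline mice, against 10.17, 10.07, 10.12, 10.03 and 10.01 in control mice. The saline mice were spread over a wider range, with B and C lowest, and the difference was -0.65 ± 0.14 (SE, n = 5 each; adjusted p = 0.722). Its best-known target Cyp1a1 measured 5.13, 4.79, 3.70, 3.58 and 3.54 in saline mice, against 3.18, 3.60, 4.38, 4.67 and 3.72 in control mice, so the groups overlapped widely and saline B and C were highest. Of 9 measured genes of the aryl hydrocarbon receptor list, Ahr included, 1 was lower and 1 higher (11.1% each) at an unadjusted p under 0.05. The shares of all genes were 4.09% lower and 2.31% higher. The gene that was higher was Cyp1a2, by 0.31 at a dim level. Also among the 15 were Bcl6b, a repressor found in endothelial cells (-0.62), and Prdm1, a repressor that drives plasma cell formation (-0.51).

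**Figure D2:**
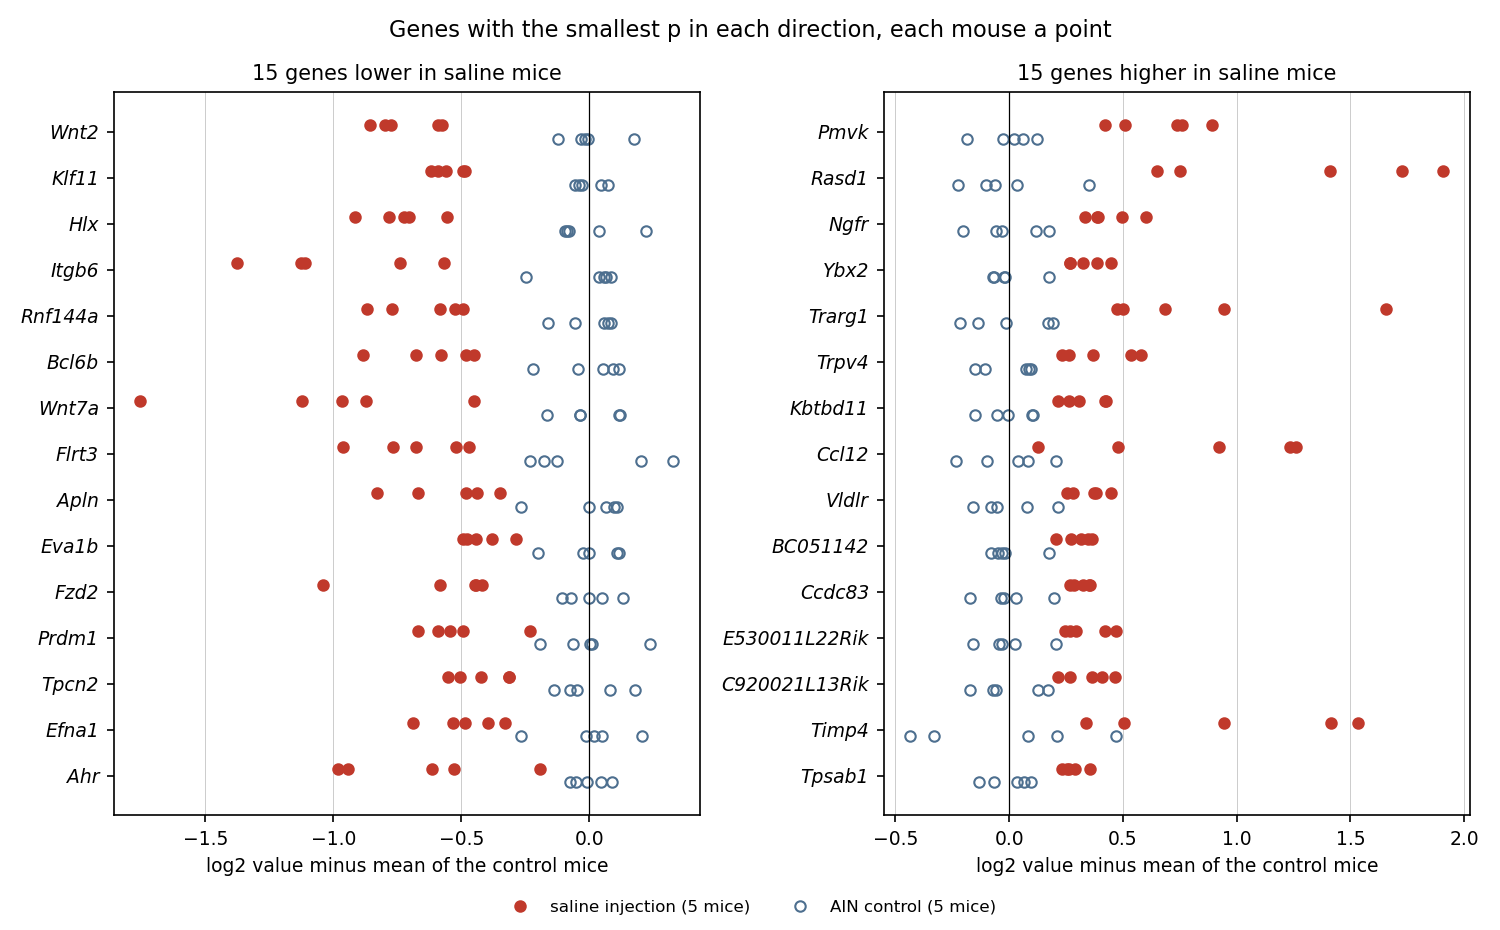
Log2 value minus the mean of the control mice (horizontal axis) for the 15 genes with the smallest p in each direction, 1 point per mouse, with saline mice as filled points above the open points of AIN control mice. No saline mouse reached a control mouse among the lower genes, and among the higher genes the groups overlapped in Ccl12 and Timp4 only.

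Itgb6, the integrin beta subunit of epithelium that activates latent TGF-beta, had the largest difference after Wnt7a among the 15 genes with the smallest p. It measured 5.31, 4.76, 5.14, 4.50 and 4.75 in saline mice, against 5.92, 5.63, 5.96, 5.94 and 5.93 in control mice. Saline E was lowest, control C stood apart from the other 4 controls, and the difference was -0.98 ± 0.14 (SE, n = 5 each), 1.98-fold lower (adjusted p = 0.196). Rnf144a, an E3 ubiquitin ligase, measured 9.47, 9.37, 9.75, 9.66 and 9.72 in saline mice, against 10.30, 10.33, 10.08, 10.19 and 10.32 in control mice. The groups did not overlap, all 3 of its probe sets were lower at an unadjusted p under 0.05, and the difference of the brightest was -0.65 ± 0.10 (SE, n = 5 each; adjusted p = 0.196). Flrt3, a membrane protein with leucine-rich repeats, differed by -0.68 and Efna1, an ephrin ligand of Eph receptors, by -0.49. Eva1b, a membrane protein, and Tpcn2, a two-pore cation channel of lysosomes, both differed by -0.42.

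Genes of blood vessels were lower in part. Apln, the peptide ligand apelin, measured 7.29, 6.89, 7.38, 7.24 and 7.06 in saline mice, against 7.83, 7.79, 7.46, 7.82 and 7.72 in control mice. Saline D and control D were closest, and the difference was -0.55 ± 0.11 (SE, n = 5 each; adjusted p = 0.722). Its receptor Aplnr measured 10.54, 10.30, 10.40, 10.95 and 10.24 in saline mice, against 11.04, 10.70, 10.89, 10.91 and 11.31 in control mice. Here saline E lay among the controls and the other 4 saline mice below them (-0.48 ± 0.15, SE, n = 5 each; adjusted p = 0.856).

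Kdr, the main receptor for vascular endothelial growth factor, measured 9.62, 9.65, 10.14, 9.38 and 9.80 in saline mice, against 10.33, 10.22, 10.34, 10.39 and 10.13 in control mice. Saline D just overlapped control F, and the difference was -0.57 ± 0.13 (SE, n = 5 each; adjusted p = 0.79). Cldn5, the claudin of endothelial tight junctions, differed by -0.40 without overlap (adjusted p = 0.799). Tek, the angiopoietin receptor, and Pecam1, the platelet-endothelial adhesion molecule, each differed by -0.33, with control A among the saline mice in both. Of 14 endothelial markers, 5 were lower (35.7%) and 0 higher at an unadjusted p under 0.05 (limma, 0 passed adjustment). Over all genes 4.09% were lower and 2.31% higher. The median difference of the markers was -0.28, beside -0.008 over all genes. Within batches the median was -0.31 in b1, -0.31 in b2, 0.04 in b3 and -0.54 in b5. The mean of the 14 markers was 10.35, 10.46, 10.30, 10.04 and 10.36 in saline mice, against 10.47, 10.66, 10.59, 10.61 and 10.55 in control mice. Saline E, the mouse with the highest fat and thymocyte markers, was lowest, and the part of those tissues in this difference was not tested. With saline D and E left out the median was -0.23, as against -0.28 with all mice.

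Other structural cell types gave smaller sets. Among 11 fibroblast markers 3 were lower (27.3%) and 1 higher (9.09%) at an unadjusted p under 0.05 (median -0.19). Over all genes these shares were 4.09% and 2.31%. Tcf21, a factor of lipofibroblasts, differed by -0.41 (adjusted p = 0.799), Col13a1, a membrane collagen, by -0.34 (adjusted p = 0.862) and Npnt, the matrix protein nephronectin, by -0.29 (adjusted p = 0.871), while Lum, the proteoglycan lumican, was higher by 1.01 (adjusted p = 0.871). Hhip, the hedgehog-interacting protein, in the smooth muscle list, differed by -0.44 (adjusted p = 0.799), with 3 of its 4 probe sets lower at an unadjusted p under 0.05. Of 39 collagens and elastic matrix genes 4 were lower (10.3%) and 0 higher, with a median of -0.04. Among the lower were Col4a4 of basement membrane (-0.37) and the elastic fiber genes Fbln5 (-0.25) and Emilin1 (-0.35). In alveolar type I cells, the flat cells of gas exchange, 1 of 8 markers was lower (Emp2, -0.28). In type II cells 0 of 10 reached an unadjusted p under 0.05 in either direction, and in ciliated cells 0 of 11 (limma; the rank product was not counted by list).

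The 15 genes with the smallest p in the higher direction had differences between 0.28 and 1.29 and adjusted p between 0.245 and 0.799. In 13 of them the groups did not overlap, which by itself makes the difference positive within every batch. All 15 were higher within each of the 4 batches. The mean was below log2 5 in both groups for 8 of them, a level at which a probe set is near the bottom of the array's range.

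Pmvk, phosphomevalonate kinase of the cholesterol pathway, had the smallest p of these. It measured 7.86, 7.99, 7.52, 7.60 and 7.83 in saline mice, against 6.91, 7.16, 7.22, 7.12 and 7.07 in control mice (chromosome 3, 89454541 to 89469014). Saline D was the lowest saline mouse and still above every control mouse, and the difference was 0.66 ± 0.10 (SE, n = 5 each), 1.58-fold (adjusted p = 0.245). Dexamethasone mice averaged 8.47 and mice given dexamethasone and arsenite 8.57. Rasd1, a Ras-related protein first described as induced by dexamethasone, measured 6.67, 5.70, 6.36, 6.86 and 5.60 in saline mice, against 4.89, 5.30, 4.99, 4.73 and 4.85 in control mice. Saline B, D and E were highest, and the difference was 1.29 ± 0.23 (SE, n = 5 each), 2.44-fold (adjusted p = 0.446). It was 0.30 in batch b1 and between 1.30 and 2.01 in the other 3.

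Trarg1, a regulator of glucose transporter traffic known from fat cells, measured 6.66, 7.13, 6.87, 7.84 and 6.68 in saline mice, against 6.38, 6.17, 5.97, 6.35 and 6.05 in control mice. Saline E, the mouse with the highest fat markers, was highest, and the other 4 saline mice were above every control as well (0.85 ± 0.20, SE, n = 5 each; adjusted p = 0.799). Timp4, an inhibitor of matrix metalloproteinases, measured 5.36, 5.80, 6.39, 6.27 and 5.20 in saline mice, against 4.94, 4.42, 5.33, 4.53 and 5.07 in control mice. Saline D and E were highest, saline F lay below control D, and the difference was 0.95 ± 0.25 (SE, n = 5 each; adjusted p = 0.799). Ccl12, a chemokine that attracts monocytes, measured 5.23, 4.89, 4.09, 4.45 and 5.20 in saline mice, against 4.18, 4.01, 4.05, 3.74 and 3.87 in control mice. Only saline D overlapped the controls, and the difference was 0.80 ± 0.20 (SE, n = 5 each; adjusted p = 0.799). With saline D and E left out, an alternative chosen after seeing the data, Ccl12 differed by 1.14 with an adjusted p of 0.0366, and 2 probe sets with no single gene symbol passed beside it.

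The other genes of this group were Vldlr, the very low density lipoprotein receptor (0.35, in 1 of its 6 probe sets), Kbtbd11, a kelch and BTB protein (0.33, in 1 of 4), Trpv4, a calcium channel that opens on stretch and swelling (0.40), and Ngfr, a neurotrophin receptor (0.44, in 1 of 3). Ybx2, a germ cell RNA-binding protein, Tpsab1, a mast cell tryptase, Ccdc83, BC051142, E530011L22Rik and C920021L13Rik differed by 0.28 to 0.35, all at dim levels.

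The 30 genes were also read in the other AIN-76A groups. They were chosen for their p between saline and control mice. An outermost place of either mean among the groups is therefore partly set by that choice, and the counts are a description. Of the 15 lower genes, the saline mean was the lowest of all 8 AIN-76A groups in 11 and the control mean the highest in 10. For Wnt2 the saline mean was 6.98, against 7.70 in control mice, while mice given As measured 7.82 with food at 10 ppb, and 7.35 and 7.28 with water at 10 and 100 ppb. The other injected groups measured 7.37 for arsenite, 6.65 for dexamethasone and 6.69 for both, so uninjected mice given As in water lay between saline and control mice. Hlx averaged 7.78 in saline mice, 8.31 in arsenite-injected mice, 7.87 in dexamethasone mice, 8.15 and 7.94 in mice given 10 and 100 ppb in their water, and 8.51 in both control mice and mice given 10 ppb in food. Ccl12 averaged 4.77 in saline mice, 4.79 at 100 ppb in water, 4.00 in arsenite-injected mice and 3.97 in both dexamethasone and control mice. Of the 15 higher genes, the control mean was the lowest of the 8 groups in 11 and the saline mean the highest in 4.

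Genes raised by glucocorticoids were higher in some saline mice. Of 38 such targets, all measured, 11 were higher (28.9%) and 1 lower (2.63%) at an unadjusted p under 0.05. Over all genes these shares were 2.31% and 4.09%. A positive difference was found in 33 of the 38 targets, beside 8669 of all 18193 genes. None of the 38 passed adjustment in limma (smallest adjusted p 0.799). The median difference was 0.48, beside -0.008 over all genes. The list was drawn up with earlier results of these data known.

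The mean of the 38 genes was 10.00, 9.84, 9.19, 9.12 and 9.17 in saline mice B to F, against 8.86, 9.28, 8.86, 9.02 and 9.02 in control mice A, C, D, E and F. Saline B and C stood above all controls, and saline D, E and F lay within their range. The same 2 mice were low in B and T cell markers. The mean of 10 B cell markers was 5.80 in saline B and 4.91 in saline C, against 6.13 to 6.36 in control mice. That of 9 T cell markers was 4.63 and 4.70, against 4.95 to 5.04. Of the B cell markers 8 in saline B and 9 in saline C were below every control mouse, as were 6 and 4 of the T cell markers. Over all genes 16.4% in saline B and 18.1% in saline C were below every control mouse. Dexamethasone mice ranged from 4.56 to 6.06 in the B cell mean and from 4.39 to 4.67 in the T cell mean. Natural killer cell markers, also of lymphocytes, differed from this. Their mean was 5.55 in saline B and 5.23 in saline C, against 5.46 to 6.00 in control mice. Both saline mice were above all dexamethasone mice there (4.32 to 4.91). The part of these cells in the difference of the target genes was not tested. Of the 38 genes, 29 in saline B (76.3%) and 26 in saline C (68.4%) were above all 5 control mice. In D it was 11 (28.9%), in E 14 (36.8%) and in F 9 (23.7%). Over all genes the shares were 16.2% in B, 16.2% in C, 14.3% in D, 18.9% in E and 20.5% in F. Dexamethasone mice ranged from 9.22 to 9.72 in the mean of the 38 genes, so saline B and C were above and saline D, E and F below all 5 of them. Saline B and C share array batch b3 with control A alone. The median difference was 0.88 in batch b3, -0.09 in b1, 0.11 in b2 and 0.08 in b5. It was 0.07 with batch b3 left out and 0.59 with saline D and E left out. Leaving out 1 mouse at a time gave medians from 0.27 to 0.60.

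**Figure D3:**
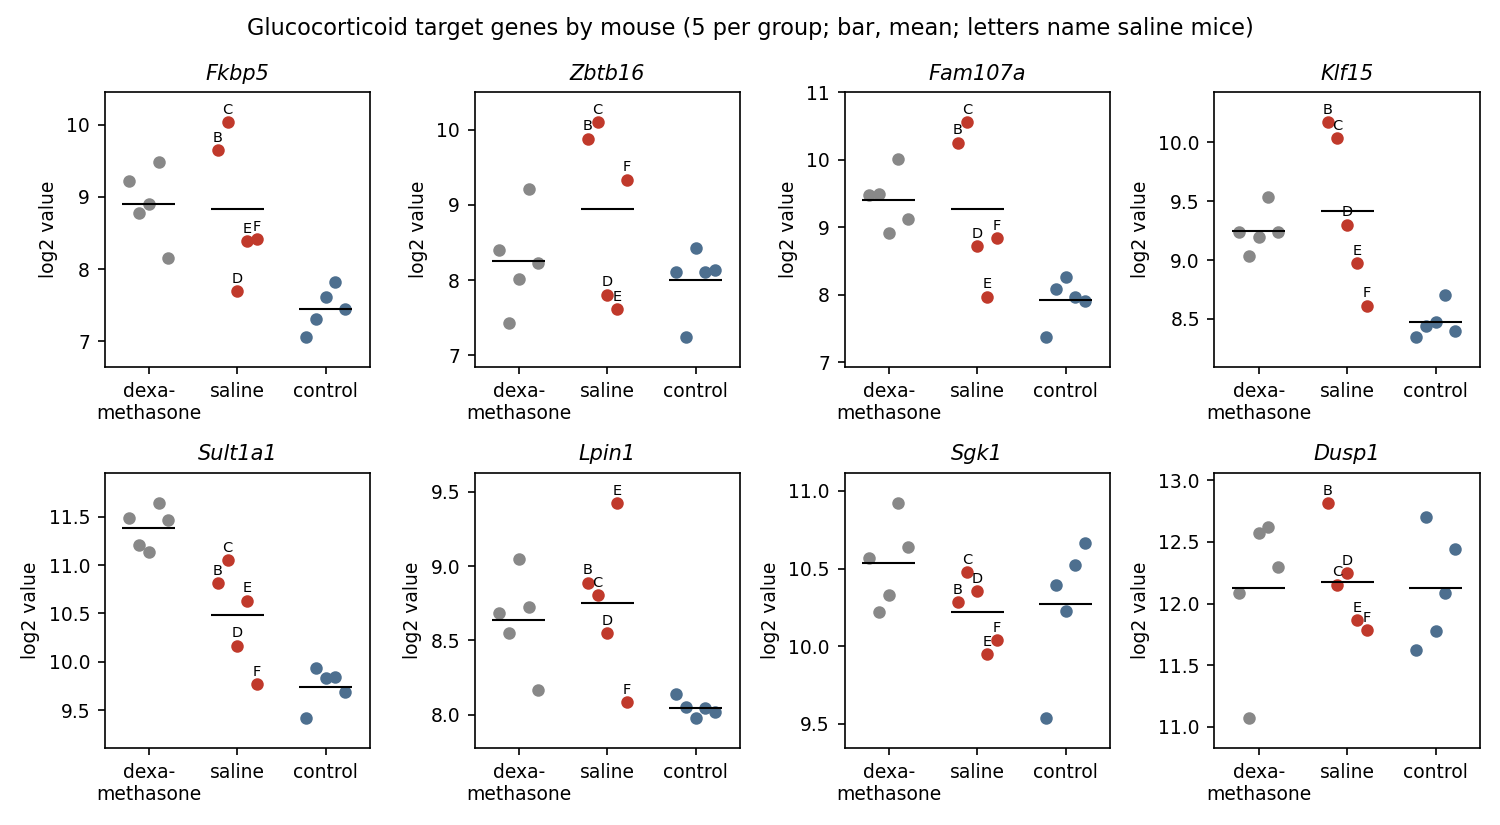
Log2 values (vertical axis) of 8 glucocorticoid target genes in dexamethasone, saline and AIN control mice, 5 mice per group, with bars at the group means and letters at saline mice. Saline B and C were the highest of all 15 mice for Fkbp5, Zbtb16, Fam107a and Klf15, while the groups overlapped for Sgk1 and Dusp1.

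Fkbp5, a co-chaperone that restrains the glucocorticoid receptor (chromosome 17, 28398753 to 28486149), measured 9.65, 10.04, 7.70, 8.38 and 8.41 in saline mice, against 7.06, 7.31, 7.62, 7.83 and 7.45 in control mice. Saline B and C exceeded the highest dexamethasone mouse (9.48), saline E and F lay between the controls and most dexamethasone mice, and saline D was within the controls. The difference was 1.38 ± 0.38 (SE, n = 5 each), 2.61-fold (adjusted p = 0.799), and within batches it was 1.10 in b1, -0.13 in b2, 2.78 in b3 and 0.94 in b5. Klf15, a factor of amino acid and glucose metabolism, measured 10.17, 10.04, 9.30, 8.97 and 8.61 in saline mice, against 8.35, 8.44, 8.48, 8.70 and 8.40 in control mice. Saline F alone overlapped the controls, and the difference was 0.95 ± 0.26 (SE, n = 5 each; adjusted p = 0.799). Lpin1, a phosphatidate phosphatase, measured 8.89, 8.80, 8.55, 9.43 and 8.09 in saline mice, against 8.14, 8.05, 7.98, 8.04 and 8.02 in control mice. Saline E was highest and saline F below control A (0.70 ± 0.19, SE, n = 5 each; adjusted p = 0.799).

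Sult1a1, a phenol sulfotransferase, measured 10.81, 11.05, 10.16, 10.63 and 9.77 in saline mice, against 9.42, 9.94, 9.83, 9.84 and 9.68 in control mice. Saline F lay within the controls, every dexamethasone mouse was above 11.1, and the difference was 0.74 ± 0.21 (SE, n = 5 each; adjusted p = 0.81). Further members were singled out after their values were seen. Fam107a, an actin-associated protein (chromosome 14, 8296270 to 8317607), measured 10.26, 10.56, 8.72, 7.97 and 8.84 in saline mice, against 7.38, 8.09, 8.26, 7.97 and 7.91 in control mice. Saline E matched the controls, the other saline mice were above them, and the difference was 1.35 ± 0.43 (SE, n = 5 each; adjusted p = 0.856). Zbtb16, a zinc finger repressor, measured 9.88, 10.10, 7.80, 7.61 and 9.34 in saline mice, against 8.10, 7.24, 8.43, 8.11 and 8.13 in control mice. Its 3 highest saline mice B, C and F were above every dexamethasone mouse (7.43 to 9.21), and the other 2 were among the controls (0.95 ± 0.47, SE, n = 5 each; adjusted p = 0.877).

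Map3k6, a kinase of stress signaling, measured 8.87, 9.34, 6.49, 6.54 and 8.14 in saline mice, against 6.80, 7.41, 6.68, 7.08 and 6.42 in control mice. It divided the saline mice in the same way, with B, C and F above and D and E among the controls (1.00 ± 0.51, SE, n = 5 each; adjusted p = 0.877). Tat, tyrosine aminotransferase, which is best known from liver, measured 5.71, 4.63, 5.89, 4.51 and 4.57 in saline mice, against 4.08, 4.32, 4.35, 3.78 and 4.08 in control mice. It did not overlap, and saline D, the mouse with the highest liver markers, was highest (0.94 ± 0.27, SE, n = 5 each; adjusted p = 0.812). The remaining members higher at an unadjusted p under 0.05 were Ddit4, an inhibitor of mTORC1 (0.98), Cdkn1a, the cell cycle inhibitor p21 (0.99), Mt2, a metallothionein (0.80), Arrdc2, an arrestin-domain protein (0.60), and Gadd45g, a stress gene (0.47). Aqp1, the water channel of lung endothelium, was the 1 member that was lower (-0.26, adjusted p = 0.862).

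Other well-known targets overlapped between the groups. Sgk1, a kinase that activates the epithelial sodium channel, measured 10.28, 10.47, 10.36, 9.95 and 10.04 in saline mice, against 9.54, 10.39, 10.23, 10.53 and 10.66 in control mice. Control A was lowest and control F highest, and the difference was -0.05 ± 0.19 (SE, n = 5 each; adjusted p = 0.987). Dusp1, a phosphatase that turns off MAP kinases, measured 12.81, 12.15, 12.24, 11.87 and 11.79 in saline mice, against 11.62, 12.70, 11.78, 12.08 and 12.44 in control mice (0.05 ± 0.23, SE, n = 5 each; adjusted p = 0.99). Among 7 measured genes for corticosteroid receptors and the enzymes and chaperones around them, 1 was higher (Stip1, a chaperone adaptor, 0.28) and 0 lower at an unadjusted p under 0.05. The shares of all genes were 2.31% higher and 4.09% lower. Nr3c1, the glucocorticoid receptor itself, differed by -0.22 (adjusted p = 0.89).

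Promoter sequences of the list are shown because the glucocorticoid receptor binds as a pair of molecules to an inverted repeat. RefSeq promoter windows of GRCm38.p6, from 250 bases before to 50 after the start, were searched on both strands for GAACANNNTGT, a motif chosen after the expression values had been seen. It was found in 319 of 32851 windows (0.971%). Of the 38 targets, 33 genes have a window, 49 windows in all, and the motif was found in 5 of the 49 (10.2%), which belong to 4 genes, Fam107a, Map3k6, Mt1 and Sgk1. Windows of 1 gene, such as those of Fam107a, overlap and share a match, so a match can be counted more than once. The list was drawn up from genes known to be raised by glucocorticoids. Its share of matches therefore describes the list and not the saline mice. The 3 windows below belong to genes whose values are given above, and capitals mark the matched bases. The Fam107a window is chr14:8309728-8310027 on the minus strand, with the match starting at -118.
Fam107a: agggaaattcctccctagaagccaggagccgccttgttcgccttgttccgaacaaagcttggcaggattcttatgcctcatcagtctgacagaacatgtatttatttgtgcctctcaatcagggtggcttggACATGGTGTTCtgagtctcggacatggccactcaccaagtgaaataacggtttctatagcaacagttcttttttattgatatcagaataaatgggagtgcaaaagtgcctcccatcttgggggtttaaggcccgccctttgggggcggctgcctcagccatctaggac
The Map3k6 window is chr4:133240568-133240867 on the plus strand, with the match starting at -179.
Map3k6: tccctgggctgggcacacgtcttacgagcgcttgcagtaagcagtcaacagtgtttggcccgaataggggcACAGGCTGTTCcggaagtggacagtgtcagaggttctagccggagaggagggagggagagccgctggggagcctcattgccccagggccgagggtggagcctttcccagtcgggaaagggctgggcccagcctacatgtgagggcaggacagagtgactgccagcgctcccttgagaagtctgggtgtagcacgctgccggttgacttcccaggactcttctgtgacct
The Sgk1 window is chr10:21993640-21993939 on the plus strand. The motif matches on both strands there, starting at -188 and -186.
Sgk1: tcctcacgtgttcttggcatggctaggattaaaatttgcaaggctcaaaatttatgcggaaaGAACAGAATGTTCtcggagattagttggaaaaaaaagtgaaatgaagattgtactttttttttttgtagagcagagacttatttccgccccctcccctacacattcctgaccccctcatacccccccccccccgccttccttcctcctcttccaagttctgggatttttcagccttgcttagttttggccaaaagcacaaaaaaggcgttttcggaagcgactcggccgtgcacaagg
Sgk1 thus has matching letters on both strands of its window and a difference of -0.05, while Fkbp5 and Klf15 have larger differences and no match in these windows. A match is a description of letters, not of binding, and the distance to the gene start differs between the 3 genes.

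Core clock genes gave no common direction. Of 18 measured genes 1 was higher (5.56%) and 0 lower at an unadjusted p under 0.05 (limma, 0 passed adjustment), and the median was 0.02. The shares of all genes were 2.31% higher and 4.09% lower. Npas2, the partner of Arntl in place of Clock, measured 4.80, 4.22, 5.17, 4.83 and 5.24 in saline mice, against 3.96, 3.96, 4.49, 4.42 and 4.73 in control mice. Saline C lay within the controls, and the difference was 0.54 ± 0.20 (SE, n = 5 each; adjusted p = 0.862). Per1, which is both a clock gene and a glucocorticoid target, measured 9.11, 8.66, 8.20, 7.82 and 7.51 in saline mice, against 7.09, 8.43, 7.37, 8.10 and 7.87 in control mice. Saline B and C were highest and the rest overlapped (0.49 ± 0.32, SE, n = 5 each; adjusted p = 0.895). Arntl, the central activator, differed by 0.11, its repressor Nr1d1 by -0.09, Per2 by 0.19, Per3 by -0.10 and Cry1 by 0.21. Of 16 clock output genes 2 were higher (12.5%), Cdkn1a and Herpud1, a gene of protein quality control in the endoplasmic reticulum (0.35), and 1 was lower (6.25%). That was Dbp, a transcription factor driven directly by the clock, which measured 7.61, 7.93, 8.24, 8.21 and 6.89 in saline mice, against 8.76, 8.17, 8.79, 8.65 and 7.68 in control mice. Control F was below 3 saline mice, and the difference was -0.63 ± 0.28 (SE, n = 5 each; adjusted p = 0.871).

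Immediate early genes, which are transcribed within minutes of a stimulus, overlapped between the groups. Of 26 measured, 0 were higher and 1 lower (3.85%) at an unadjusted p under 0.05 (limma, 0 passed adjustment), and the median was -0.04. Over all genes 2.31% were higher and 4.09% lower. Fos measured 12.00, 11.65, 11.18, 10.62 and 11.21 in saline mice, against 11.06, 11.10, 10.43, 10.77 and 11.69 in control mice. The lower gene was Ccn1, a matrix protein, by -0.62 (adjusted p = 0.871), with saline E lowest at 9.44. Of 18 heat shock genes 1 was higher (Hspb8, a small chaperone, 0.31) and 0 lower, with a median of 0.09. Among 8 genes for metallothioneins and zinc transport Mt2 was higher by 0.80 and Slc30a1, the zinc exporter, lower by -0.24. The p53 and Gadd45 stress list had 4 of 22 higher (18.2%) and 1 lower (4.55%). The higher were Ddit4, Cdkn1a, Gadd45g and Trp53inp1 (0.42), of which the first 3 also stand in the glucocorticoid list. Of 27 genes regulated by Nrf2, the oxidant-sensing factor, 0 were higher and 1 lower (Txnrd1, thioredoxin reductase, -0.17).

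Of 38 cytokines and chemokines 2 were higher (5.26%) and 3 lower (7.89%) at an unadjusted p under 0.05, beside 2.31% and 4.09% of all genes. None passed adjustment, and the median was 0.05. Tslp, an epithelial cytokine that acts on dendritic cells, measured 5.57, 5.19, 5.57, 5.35 and 5.51 in saline mice, against 5.72, 5.62, 6.44, 6.41 and 6.33 in control mice. The groups did not overlap, with control A and C close to the saline mice (-0.67 ± 0.17, SE, n = 5 each; adjusted p = 0.799). Cxcl12, the ligand of the CXCR4 receptor, measured 9.09, 9.31, 9.40, 9.15 and 9.74 in saline mice, against 9.65, 9.80, 9.98, 9.56 and 9.67 in control mice. Saline F was within the controls, dexamethasone mice ranged lower at 8.02 to 8.57, and the difference was -0.40 ± 0.13 (SE, n = 5 each; adjusted p = 0.856). Il1b, the inflammatory cytokine interleukin 1 beta, singled out after its values were seen, measured 9.80, 9.86, 8.57, 8.51 and 10.13 in saline mice, against 8.51, 10.55, 9.05, 10.67 and 10.11 in control mice. Its spread within each group was wider than the difference of -0.40 ± 0.46 (SE, n = 5 each; adjusted p = 0.945).

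Of 31 interferon-stimulated genes 0 were higher and 3 lower (9.68%) at an unadjusted p under 0.05 (limma, 0 passed adjustment), with a median of -0.12. Over all genes 2.31% were higher and 4.09% lower. The 3 lower genes were Bst2, which tethers virus particles (-0.38), Ifit2, which binds viral RNA (-0.34), and Ddx58, the RNA sensor RIG-I (-0.23). Of 18 acute phase genes 17 had a positive difference, beside 8669 of all 18193 genes. At an unadjusted p under 0.05, 2 were higher (11.1%), beside 2.31% of all genes, and the list median was 0.61. The mean of the acute phase genes was 6.66, 6.87, 8.97, 6.83 and 6.64 in saline mice, against 6.30, 6.65, 6.34, 6.28 and 6.38 in control mice. Saline D stood far above all others and also had the highest liver markers, 8.61 against at most 4.68 in the other saline mice and 4.26 in control mice. Saa1, the acute phase protein serum amyloid A1 of liver, measured 3.79, 4.22, 10.58, 4.34 and 3.53 in saline mice, against 3.33, 3.52, 3.33, 2.77 and 3.32 in control mice, so its difference of 2.04 rested mostly on saline D. Serpina3n, a serine protease inhibitor also made in lung, measured 9.50, 10.02, 8.95, 9.38 and 9.70 in saline mice, against 8.72, 9.54, 8.41, 8.78 and 9.03 in control mice (0.61 ± 0.22, SE, n = 5 each; adjusted p = 0.862). With saline D and E left out the median of the list was 0.31.

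**Figure D4:**
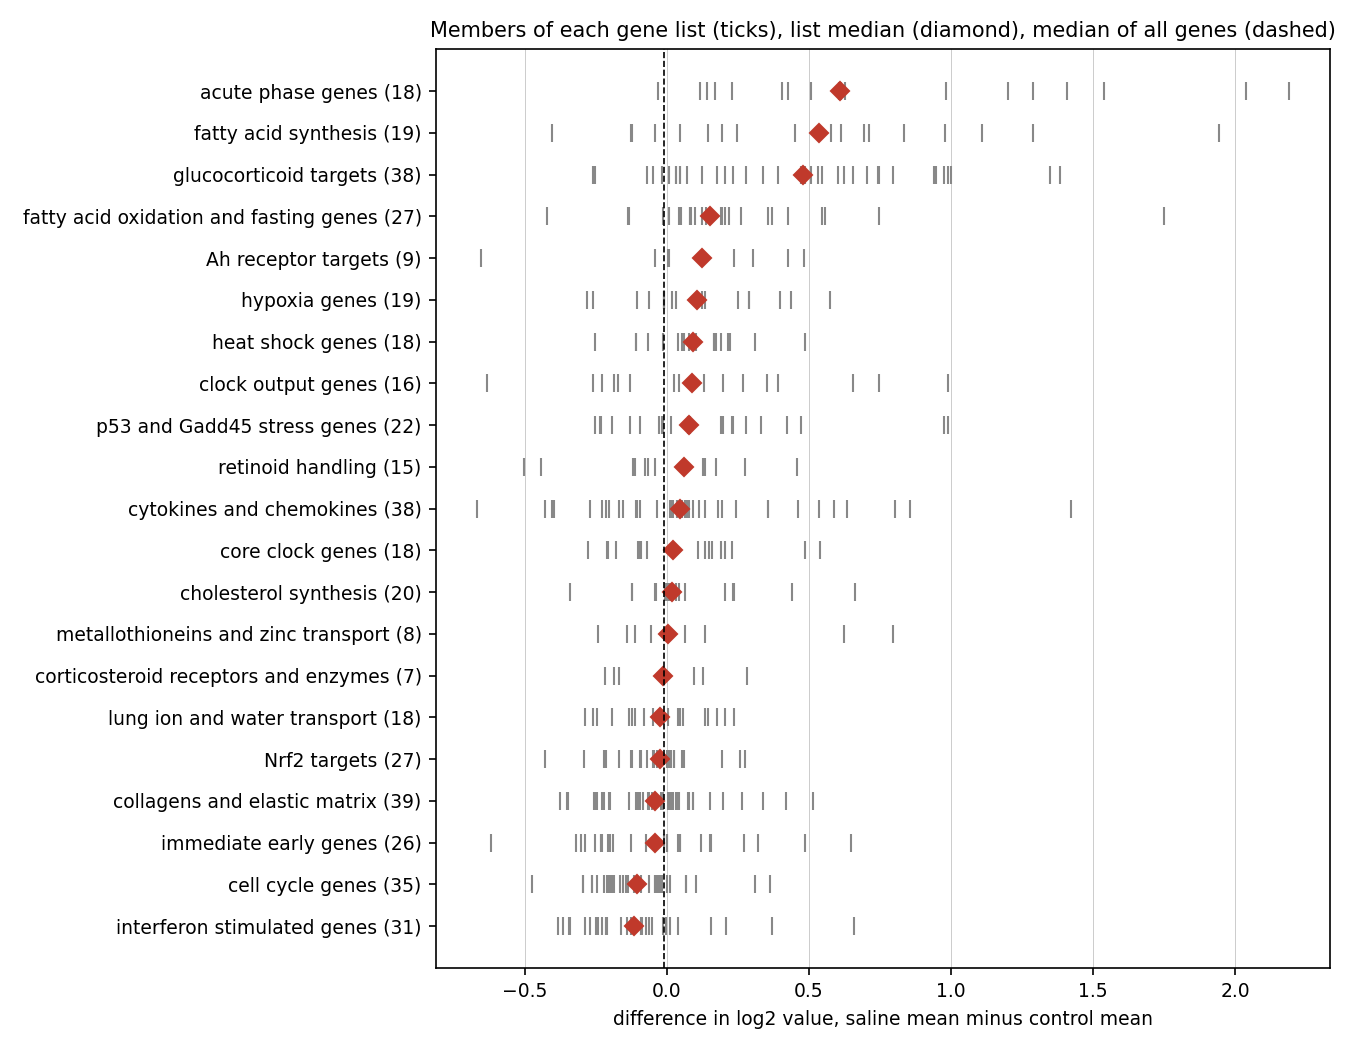
Difference of each measured member, saline minus AIN control mean (horizontal axis, log2), for 21 function lists, with ticks for members, a diamond at the list median and a dashed line at the median of all genes (-0.008). Acute phase genes (0.61), fatty acid synthesis (0.54) and glucocorticoid targets (0.48) had the highest medians.

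Genes of fatty acid synthesis were highest in the mice with the highest fat markers, whose part in the difference was not tested. Of 19 fatty acid synthesis genes 5 were higher (26.3%) and 1 lower (5.26%) at an unadjusted p under 0.05, with a median of 0.54. Over all genes these shares were 2.31% and 4.09%. Fasn, fatty acid synthase, measured 10.39, 9.61, 11.26, 11.83 and 10.07 in saline mice, against 9.77, 9.88, 9.53, 10.02 and 9.79 in control mice. Saline D and E were highest, as they were for Adipoq, the fat hormone adiponectin, which measured 8.75, 6.32, 10.05, 12.52 and 6.09 in saline mice, against 8.11, 6.25, 6.81, 4.52 and 4.89 in control mice. All 9 white fat markers were above every control mouse in saline B, D and E, beside 16.2%, 14.3% and 18.9% of all genes. With saline D and E left out the median of fatty acid synthesis was 0.07, and within batches it was 0.86 in b2 and 1.38 in b5, the batches of those mice, and 0.11 in b1 and -0.04 in b3.

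Elovl1, an elongase of long fatty acids, was lower (-0.40, adjusted p = 0.862). In fatty acid oxidation, Cpt1a, the carnitine transferase at the entry to mitochondria, measured 9.11, 9.22, 8.73, 8.98 and 8.98 in saline mice, against 9.54, 9.64, 9.24, 9.20 and 9.50 in control mice. Saline C just overlapped control E, and the difference was -0.42 ± 0.12 (SE, n = 5 each; adjusted p = 0.799), seen in 1 of its 3 probe sets. Lpl, lipoprotein lipase, was higher by 0.43 without overlap (adjusted p = 0.856). At an unadjusted p under 0.05, 2.31% of all genes were higher and 4.09% lower, and 0.418% were higher without overlap. Of 20 cholesterol synthesis genes 3 were higher (15.0%), all without overlap, and 1 lower (5.0%), with a median of 0.02. Beside Pmvk these were Dhcr7, the last enzyme of the pathway (0.44, adjusted p = 0.799), and Lss, lanosterol synthase (0.24, adjusted p = 0.855), while Stard4, a cholesterol transfer protein, was lower (-0.34, adjusted p = 0.862).

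Among immune and airway cell types, Fabp1, a fatty acid-binding protein, and Olr1, a receptor for oxidized lipoprotein, were the 2 of 9 alveolar macrophage markers that were lower at an unadjusted p under 0.05 (-0.55, adjusted p = 0.799, and -0.57, adjusted p = 0.806). The list had 22.2% lower, beside 4.09% of all genes, and 0 higher, beside 2.31%. Its median was -0.32, and -0.04 with saline D and E left out. Of 10 B cell markers 1 was higher (Pax5, a factor of B cell identity, 0.24) and 0 lower at an unadjusted p under 0.05, with a median of -0.12. Their mean was 5.80, 4.91, 6.13, 7.59 and 6.47 in saline mice, against 6.36, 6.31, 6.30, 6.33 and 6.13 in control mice, so saline E was highest, saline B and C were lowest and the median joined both. Neutrophil markers varied within both groups, from 7.36 to 9.10 in saline mice and from 6.29 to 9.04 in control mice. Airway secretory markers ranged from 11.17 to 12.30 in saline mice and from 9.00 to 12.05 in control mice, with control E lowest. Bpifa1, a secreted protein of upper airways, measured 13.43, 12.11, 13.69, 11.71 and 10.82 in saline mice, against 13.06, 10.71, 11.72, 3.88 and 9.09 in control mice. Its difference of 2.66 ± 1.39 (SE, n = 5 each; adjusted p = 0.877) held control E at a level where the gene was near the bottom of the array. The mast cell and basophil list had 2 of 8 higher, the proteases Cma1 (0.80, adjusted p = 0.864) and Cpa3 (0.87, adjusted p = 0.864).

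The other injected mice allowed a second comparison that shares no mouse with the first. Mice injected with dexamethasone, arsenite or both (14 mice) were set against uninjected mice given As in food or water (12 mice), without 2 arrays of low quality. Here 474 probe sets rose (1.05%) and 332 fell (0.737%) at an adjusted p under 0.05 in limma. The count of 806 was 1 with the dexamethasone groups left out, which removes a drug and most of the injected mice at once, 64 with the 2 arrays of low quality kept, and 405 to 1497 with 1 mouse left out. The gene counts that follow rest on it. Over 18193 genes the differences of the 2 comparisons had a Pearson r of 0.04, given as a description.

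Of 276 genes that rose in the other injected mice (1.52% of all genes), 23 were higher (8.33%) and 8 lower (2.90%) at an unadjusted p under 0.05 in saline mice, and their median saline difference was 0.05. Of 231 genes that fell there (1.27% of all genes), 20 were lower (8.66%) and 1 higher (0.433%) in saline mice, with a median of -0.06. Over all genes the saline comparison had 2.31% higher and 4.09% lower at an unadjusted p under 0.05. The 43 genes with the same direction in both include Pmvk, which differed by 0.66 in saline mice and rose by 0.77 in the other injected mice (adjusted p = 0.026), the only one of the 30 genes above that passed there. They also include Klf15 (0.95 in saline mice and 0.85 in the others), Sult1a1 (0.74 and 1.28), Fam107a (1.35 and 1.72), Npas2 (0.54 and 1.24), Dbp (-0.63 and -1.46), Cxcl12 (-0.40 and -1.06) and Fabp1 (-0.55 and -1.05). Of the 38 glucocorticoid targets 10 rose and 0 fell in the other injected mice, where the median was 0.41, beside 1.52% and 1.27% of all genes. Most of those mice were given dexamethasone, itself a glucocorticoid. Drug and injection therefore cannot be told apart there, for these targets or for the shared genes named above. Of 18 core clock genes 1 was higher and 0 lower at an unadjusted p under 0.05 in saline mice, while 6 rose and 2 fell in the other injected mice. Wnt2, Klf11 and Hlx differed there by -0.59, -0.17 and -0.15, and none of the 3 passed. The difference between the 2 comparisons, tested in 1 model, called 0 probe sets after adjustment, and 3267 had an unadjusted p under 0.05 (limma).

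**Figure D5:**
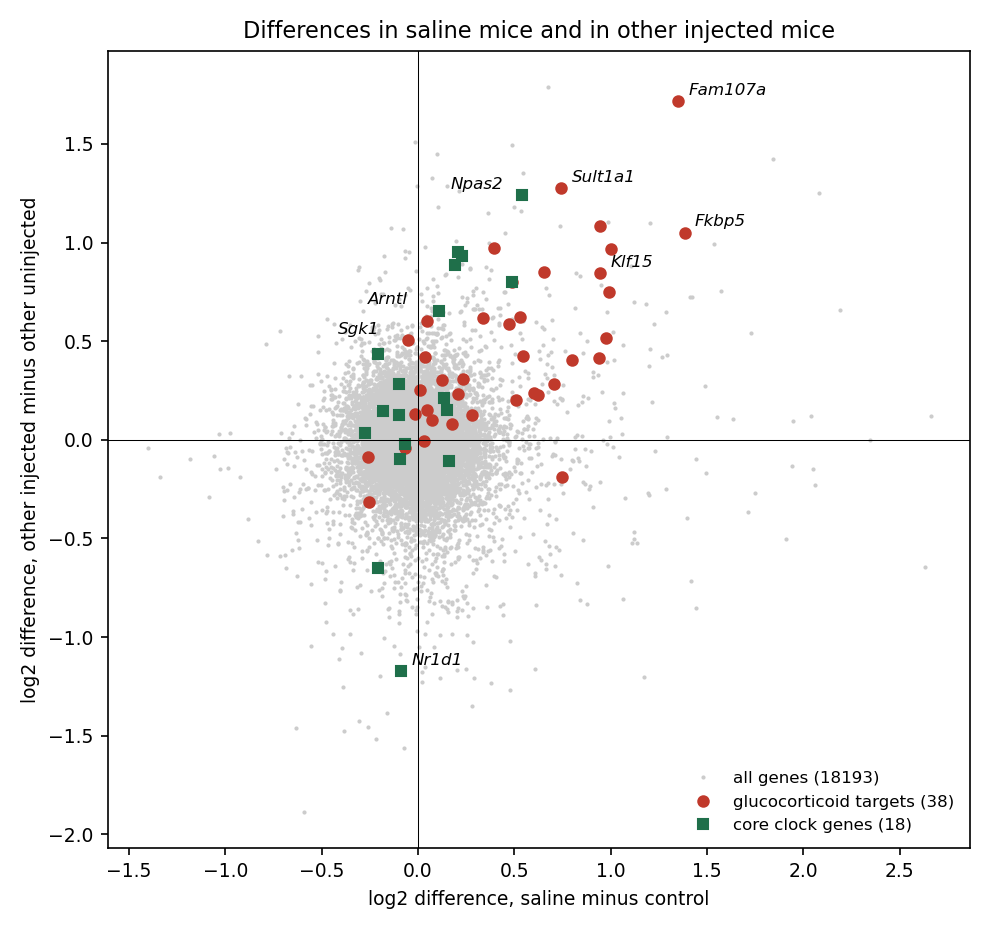
Difference of each gene in saline against AIN control mice (horizontal axis, log2) and in other injected against other uninjected AIN-76A mice (vertical axis, log2), with all 18193 genes in grey, 38 glucocorticoid targets as circles and 18 core clock genes as squares. Fam107a, Fkbp5, Sult1a1 and Klf15 lay to the upper right, and Nr1d1 lay low with a horizontal value of -0.09.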

How the data were processed

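Lung RNA of 10 mice, 5 injected with saline and 5 AIN control mice, was compared. The deposited values are log2 intensities, summarized per probe set by the authors with RMA (background correction, quantile normalization and median polish). The set of arrays that entered 1 normalization is not given in the sources used here. Of 45101 probe sets 64 array controls were left out. Of the 45037 tested, 34945 carried 1 gene symbol, 932 several and 9160 none, and 34741 matched a mouse annotation by Entrez number. A gene is given by its probe set with the highest mean.

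Differences were fitted in R 4.3.3 by a linear model with empirical Bayes (limma 3.58.1), two-sided, with Benjamini-Hochberg adjustment across all tested probe sets and a threshold of 0.05. The rank product was coded in Python 3.11.15 (numpy 2.4.6, pandas 2.3.3, matplotlib 3.10.9). Both were tested on simulated data. The rule for named genes was 15 in each direction by adjusted p, filled by the smallest p, and up to 4 of each list, with clock genes. The 21 function and 26 marker lists and the groups were chosen with earlier results of these data known. The number of replicates, 5 per group, limits the precision. A plan to search clock motifs if clock genes passed was dropped, since none passed adjustment. None of the glucocorticoid targets passed either. The glucocorticoid receptor motif was searched in place of the clock motifs and was chosen after the expression values had been seen. Alternatives are described at the end, and other groups serve as comparison only.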

Additional observations from a re-analysis of the deposited data

Results flagged for a closer look

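A sample was listed when it stood apart at one end of its group by more than a set share of the group's range. Of 154 groups of 5 mice, 20 did (13.0%), where chance gives about 1 in 20, and no cause was tested.

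Among single genes, the mouse that stood apart was control C for Itgb6 (5.63, the lowest), saline C for Fzd2 (6.72, the lowest), control E for Ybx2 (4.24, the highest) and control A for BC051142 (3.24, the highest).

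Saline E was the highest saline mouse in the mean of thymocyte markers (8.27, next 4.56), T cell markers (7.43), plasma cell markers (8.70), erythroid markers (6.04) and cell cycle genes (6.42), and the lowest in lung ion and water transport genes (8.11). Saline D was the highest in liver markers (8.61) and in acute phase genes (8.97).

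Control E was the highest control mouse in skeletal muscle markers (8.66) and erythroid markers (6.72), and control C in acute phase genes (6.65). The lowest control mouse was A in corticosteroid receptors and enzymes (8.59) and in p53 and Gadd45 stress genes (7.64), C in fibroblast markers (9.15), D in collagens and elastic matrix (8.66) and F in B cell markers (6.13).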

How the results depend on the processing

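The count of 0 probe sets at an adjusted p under 0.05 stayed at 0 without dim probe sets, with quantile or median centring, array weights, the array batch as a block, all AIN-76A mice in 1 model, and with each of the 10 mice left out (0 to 0). Outside these it was 3 without saline mice D and E (chosen after seeing the data), 9181 with the rank product, whose 25 differences share mice but are ordered at random as if separate, and 2578 at an unadjusted p.

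With the replicate block the count was 0 as well, with 1248 probe sets higher and 2151 lower at an unadjusted p. The replicate letters were not taken to pair the mice. The 4 pairs with the same letter had a median correlation of 0.29 (-0.13 to 0.42), against -0.045 in 21 pairs of other letters. For 5 pairs of the same array batch it was 0.32, against -0.143 in 20 pairs of other batches. Pairs that shared a letter or a batch were thus more alike on the median, and the main fit holds neither as a block.

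In the other injected mice the 806 probe sets became 64 with the 2 arrays of low quality, 538 with the batch as a block, 1060 without dim probe sets and 1 without the dexamethasone groups. Leaving out 1 mouse gave 405 to 1497, the lowest without replicate A or D (410) at 100 ppb in water, the highest without replicate C there or at 10 ppb in water (1399).

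Of 4471 recomputed gene differences 93, in 40 of 226 genes, had the opposite sign, and 10 of 705 list medians moved by more than 1 SD. None of the 30 genes with the smallest p changed sign. They were chosen for their p on these mice, so that was largely set by the choice. Dim probe sets and 5 mice per group limit the precision.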

Other observations

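A pair of probe sets with no single gene symbol, the ones that passed beside Ccl12 without saline D and E and chosen after their values were seen, divided the saline mice as Zbtb16 and Map3k6 did. The first measured 9.89, 10.2, 7.08, 7.21 and 9.53 in saline mice B to F, against 7.21, 7.15, 7.93, 7.57 and 7.80 in control mice A, C, D, E and F. The second measured 8.62, 8.95, 5.23, 5.21 and 8.52 in saline mice, against 6.27, 5.91, 6.09, 5.75 and 5.13 in control mice. Saline B, C and F were above every control mouse for both. Saline D was below every control mouse for the first and among them for the second, and saline E was among them for both. For the second, saline B, C and F were also above the highest of the dexamethasone mice (6.93). With all 10 mice the differences were 1.26 (unadjusted p = 0.0509, limma) and 1.47 (unadjusted p = 0.0657, limma), and without saline D and E 2.36 (adjusted p = 0.00599) and 2.87 (adjusted p = 0.00364).

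Among further gene groups, hypoxia genes had 2 of 19 higher at an unadjusted p under 0.05, Bnip3, a mitophagy receptor (0.40), and Slc2a1, the glucose transporter of most cells (0.25), with a median of 0.11. For this list and those that follow, the shares of all genes at that threshold were 2.31% higher and 4.09% lower. Of 35 cell cycle genes 1 was higher (Ccne1, cyclin E1, 0.36) and 1 lower (Mcm4, a subunit of the replicative helicase, -0.25), with a median of -0.10, which joins mice that differed. In saline E 28 of the 35 (80.0%) were above every control mouse, beside 18.9% of all genes. Below every control mouse were 22 in saline D (62.9%), 19 in saline C (54.3%) and 13 in saline B (37.1%). Over all genes those shares were 21.2%, 18.1% and 16.4%. With 1 mouse left out the median of the cell cycle list ran from -0.27 to -0.02. Of 18 lung ion and water transport genes 1 was lower, Aqp1, and 0 were higher. Of 15 retinoid handling genes 1 was higher, Rbp4, the retinol carrier of plasma (0.46).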
